A study of Mus musculus with 15 samples.

Results

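The genes described here are 9 red cell genes, chosen by name from the 31298 gene symbols of the deposited expression table: the adult alpha globins Hba-a1 and Hba-a2, the adult beta globins Hbb-bs and Hbb-bt, the heme enzyme Alas2, the membrane anion exchanger Slc4a1, the carbonic anhydrases Car1 and Car2, and the transferrin receptor Tfrc. All 9 had a row and passed the filter on low values, in 15 RNA sequencing libraries of mouse hematopoietic stem cells (HSCs). The cells came from bone marrow of hCD34-tTA x TetO-H2BGFP mice, in which a transactivator driven by human CD34 sequence switches on a green fluorescent histone (H2BGFP) until doxycycline stops it, after which each division dilutes the label. All mice, in every group, received doxycycline at 1 mg/ml in the drinking water. HSCs were sorted as lineage-, Sca1+, c-Kit+, CD48-, Flk2-, CD150+ cells after red cell lysis and magnetic depletion, and then by H2BGFP label into the bins GFP4, GFP3, GFP2 and GFP1. The fifth group is labelled Total. Each group held 3 libraries: replicate I at an age of 5 months after 12 weeks of doxycycline, replicate II at 5.5 months after 14 weeks and replicate III at 6.5 months after 16 weeks. Whether GFP4 or GFP1 kept more label is not stated in the labels, nor whether a library is 1 mouse or a pool, so the p-values speak only of the spread among the 15 libraries, which may be partly technical.

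Red cells form from progenitors that commit under the transcription factors GATA1 and KLF1 and then survive on erythropoietin signalling. In the precursors that follow, iron enters through the transferrin receptor, mitochondria make heme, and the globin genes come to dominate the messenger RNA. The membrane proteins and carbonic anhydrases that serve gas transport accumulate in the same precursors, although transferrin receptor is also made by any dividing cell and carbonic anhydrase 2 by several other blood cells. The set was described across the bins to ask which red cell genes varied with label, and which varied with markers of other cells.

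Levels are the authors' deposited log2 values and differences are in log2 units. In the sums used below, values were put on a linear scale, added and returned to log2. HSC markers were present in every library, with a summed level of the 10 markers from 16.45 to 17.67 and no marker at the lowest value of a library. The GFP1 and Total libraries stood apart in plasma cell markers: the 10 markers had summed levels from 17.25 to 17.59 (GFP1) and from 16.56 to 17.77 (Total), while the other 9 libraries lay between 13.60 and 14.22, where 1 marker, Tnfrsf17, was at the lowest value of a library. Most of the sum in those 9 libraries was Xbp1 (12.54 to 13.13) and Txndc5 (12.24 to 12.62). Jchain varied widely among them, from 3.51 in GFP3 replicate III to 10.06 in GFP3 replicate II and 11.67 in GFP4 replicate III. The lower sum therefore does not show an even level of plasma cell RNA. The 12 mitosis genes summed to 13.94 to 14.43 in GFP4 and 16.25 to 16.53 in GFP1. The deposited values hold no read depth, so counting error could not be given.

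Of the 9 genes, 2 were higher in GFP1 than in GFP4 and none was lower (limma, Benjamini-Hochberg adjusted over 27994 genes, threshold 0.05). Car1 was 9.08-fold higher and Tfrc 1.97-fold higher. The same test called 19.5% of all genes, 9.27% of all genes higher and 10.3% lower. The 9 genes had a median difference of -0.11, beside -0.07 over all genes tested. None of the 4 adult globins passed, nor did Alas2, Slc4a1 or Car2. In RNA from pooled cells, fewer cells of a type and less RNA per cell cannot be told apart. When GFP2 took the place of GFP1 and the GFP1 and Total libraries were left out, a check added after the data were seen, none of the 9 passed, beside 4.84% of all genes. There Car1 differed from GFP4 by 0.45 (adjusted p = 0.868) and Tfrc by 0.38 (adjusted p = 0.321).

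**Figure D1:**
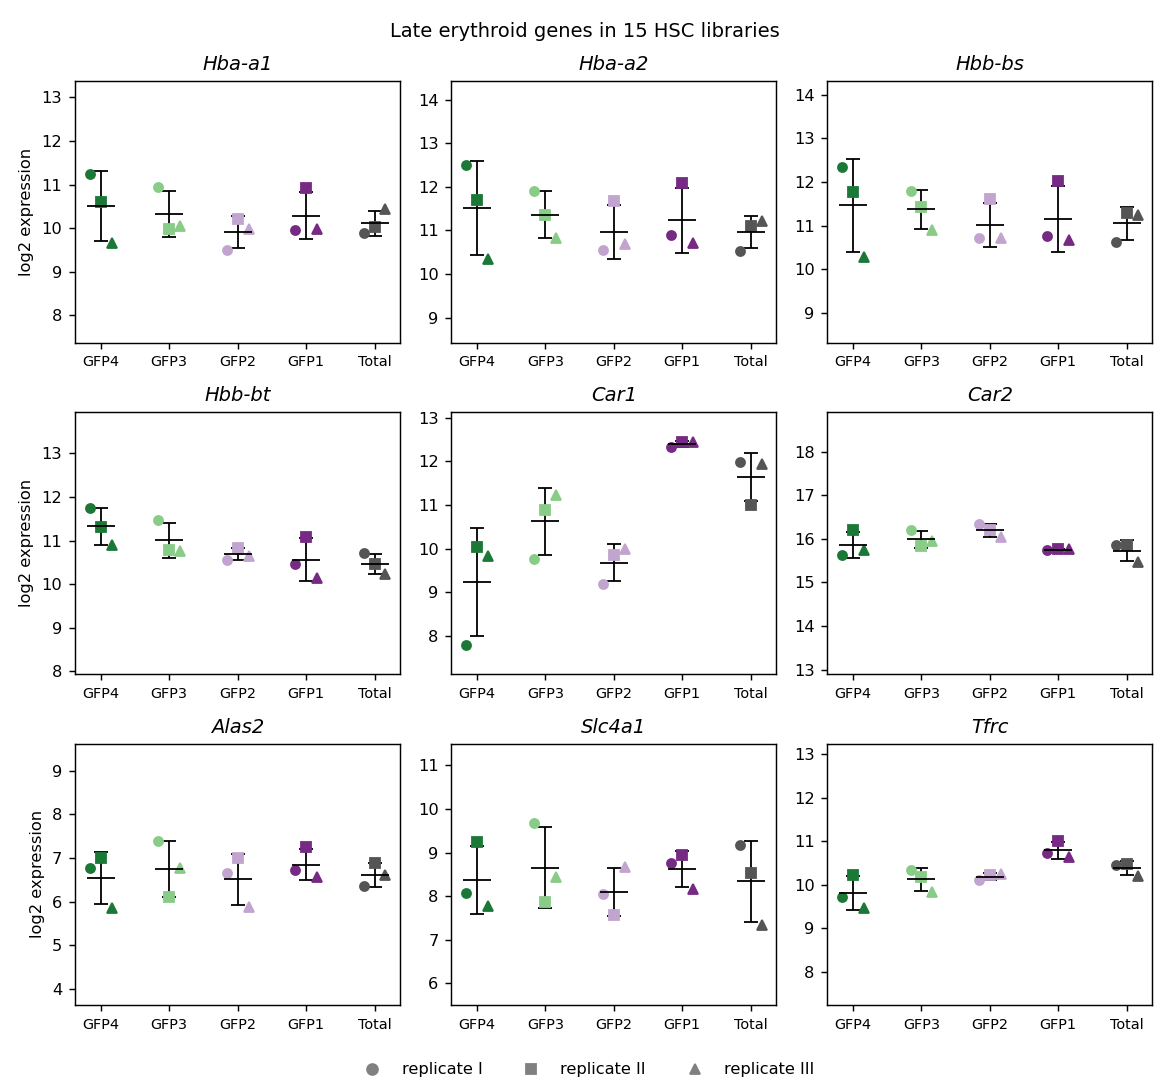
Log2 expression of the 9 genes in the 15 libraries, 1 panel a gene, each panel spanning the same number of log2 units; points are libraries, with shape for the replicate, and bars are the group mean ± SD (n = 3). Car1 and Tfrc reached 12.33 to 12.46 and 10.65 to 11.01 in GFP1, above all GFP4 libraries, while the 5 groups overlap one another in the panels of Hba-a1, Hba-a2 and Hbb-bs.

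The globin genes lie in 2 clusters. On GRCm38, in the GENCODE annotation, Hba-a1 is at chr11:32283511-32284465 and Hba-a2 at chr11:32296489-32297298, both on the plus strand; Hbb-bs is at chr7:103826534-103828096 and Hbb-bt at chr7:103812524-103813996, both on the minus strand. RefSeq promoters of GRCm38.p6 were matched for 6 of the 9 genes: the 4 globins, Alas2 and Tfrc. The 250 bases before the start site are shown for 3 globins and, for comparison of the letters near the start sites, for Alas2 and Tfrc. Capitals mark the letters GATAA (core of the GATA factor site), CACCC (core of the KLF site) and CCAAT (the CCAAT box), searched on both strands; matches on the other strand are in capitals as their reverse complement. In Hbb-bt, a CCAAT match on each strand adjoin, and the runs in capitals in Alas2 are adjoining matches.
Hba-a2, chr11:32296242-32296491, plus strand: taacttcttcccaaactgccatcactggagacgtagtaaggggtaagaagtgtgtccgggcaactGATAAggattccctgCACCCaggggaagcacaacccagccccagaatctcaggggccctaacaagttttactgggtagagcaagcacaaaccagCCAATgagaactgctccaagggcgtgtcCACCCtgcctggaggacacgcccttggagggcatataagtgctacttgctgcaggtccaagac
Hbb-bs, chr7:103827929-103828178, minus strand: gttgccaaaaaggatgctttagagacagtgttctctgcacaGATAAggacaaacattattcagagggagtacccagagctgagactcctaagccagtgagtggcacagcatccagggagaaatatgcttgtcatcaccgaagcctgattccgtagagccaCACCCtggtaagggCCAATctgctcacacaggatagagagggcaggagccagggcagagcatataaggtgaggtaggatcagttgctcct
Hbb-bt, chr7:103813924-103814173, minus strand: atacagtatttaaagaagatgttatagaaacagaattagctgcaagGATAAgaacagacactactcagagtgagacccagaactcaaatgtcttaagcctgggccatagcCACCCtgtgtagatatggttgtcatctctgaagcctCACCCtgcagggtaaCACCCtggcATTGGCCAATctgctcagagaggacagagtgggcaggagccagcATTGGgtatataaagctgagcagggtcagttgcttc
Alas2, chrX:150547167-150547416, plus strand: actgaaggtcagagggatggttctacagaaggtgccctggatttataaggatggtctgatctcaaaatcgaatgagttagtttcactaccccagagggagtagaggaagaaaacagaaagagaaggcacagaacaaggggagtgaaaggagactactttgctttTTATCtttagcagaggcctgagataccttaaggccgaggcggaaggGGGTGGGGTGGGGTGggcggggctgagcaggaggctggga
Tfrc, chr16:32608646-32608895, plus strand: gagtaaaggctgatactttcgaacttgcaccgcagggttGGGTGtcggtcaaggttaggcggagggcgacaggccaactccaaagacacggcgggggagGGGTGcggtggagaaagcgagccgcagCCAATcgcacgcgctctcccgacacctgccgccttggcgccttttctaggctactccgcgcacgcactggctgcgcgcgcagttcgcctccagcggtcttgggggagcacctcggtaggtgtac

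All 4 globin windows held the 3 motifs, which 3.45% of 32851 mouse promoter windows of the same 250 bases did. GATAA alone was in 22.6% of those windows, CACCC in 52.0% and CCAAT in 33.8%. The CCAAT box lay 91 bases before the start site in Hba-a2 and 76 in Hbb-bs. The Hba-a1 window, chr11:32283422-32283671, was identical to that of Hba-a2 over 247 of 247 bases at an offset of 3 bases. Alas2 held 1 GATAA and 3 CACCC matches but no CCAAT, and the Tfrc window printed held 2 CACCC matches and 1 CCAAT with no GATAA. A match describes letters in a window and not binding.

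Transcripts of the paired globins are also alike. Of the 31-base words in the reference transcript, 71.4% of those of Hba-a1 and 91.0% of those of Hba-a2 occur in another gene, nearly all in the other alpha globin. Hbb-bs shared 66.9% and Hbb-bt 59.4% of its words with the other beta globin. How reads were divided within a pair is therefore uncertain, and the sums of each pair are given beside the single genes.

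Hba-a1, an adult alpha chain of hemoglobin, had log2 levels of 11.25, 10.61 and 9.67 in GFP4 replicates I, II and III, then 10.95, 9.99 and 10.06 in GFP3, 9.51, 10.22 and 9.99 in GFP2, 9.96, 10.92 and 9.99 in GFP1, and 9.89, 10.03 and 10.43 in Total. Hba-a2, the second adult alpha chain, read 12.50, 11.69 and 10.35 in GFP4, 11.91, 11.35 and 10.83 in GFP3, 10.54, 11.67 and 10.69 in GFP2, 10.90, 12.09 and 10.72 in GFP1 and 10.54, 11.10 and 11.22 in Total. Hbb-bs, an adult beta chain, read 12.35, 11.76 and 10.28 in GFP4, 11.79, 11.43 and 10.90 in GFP3, 10.72, 11.60 and 10.72 in GFP2, 10.75, 12.03 and 10.66 in GFP1 and 10.62, 11.29 and 11.25 in Total. In these 3 genes GFP4 replicate I was the highest library, and GFP4 replicate III was the lowest for Hba-a2 and Hbb-bs, so GFP4 alone held nearly the whole range. The 5 groups overlapped one another in all 3 genes. GFP1 minus GFP4 was -0.22 ± 0.42 (SE) for Hba-a1, -0.28 ± 0.58 for Hba-a2 and -0.32 ± 0.55 for Hbb-bs, with adjusted p = 0.831, 0.842 and 0.809 (limma). The 95% intervals of these differences ran from -1.15 to 0.72, from -1.56 to 1.00 and from -1.54 to 0.91, which leave room for a change of 1 log2 unit downward in each. Without GFP4 replicate I the 3 differences turned positive, at 0.15, 0.22 and 0.13.

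Hbb-bt, the other adult beta chain, followed the bins more closely. Its levels were 11.75, 11.31 and 10.90 in GFP4, 11.47, 10.79 and 10.76 in GFP3, 10.56, 10.83 and 10.65 in GFP2, 10.47, 11.09 and 10.13 in GFP1 and 10.71, 10.45 and 10.23 in Total. The group means fell in the order GFP4, GFP3, GFP2, GFP1, Total, with each neighbour overlapping the next; GFP4 lay wholly above GFP2 and Total, and GFP3 wholly above Total. Across the 4 bins, where limma called 20.1% of all genes, Hbb-bt fell by 0.26 ± 0.085 (SE) per step from GFP4 to GFP1 (adjusted p = 0.0491). That call was lost without any one of 11 libraries, with the adjusted p reaching 0.164 without GFP1 replicate III and 0.159 without GFP4 replicate I, and it was lost when the compared groups were fitted alone (adjusted p = 0.0865). GFP1 minus GFP4 was -0.76 ± 0.27 (adjusted p = 0.0713) and GFP4 minus Total was 0.86 ± 0.27 (adjusted p = 0.0666), neither past the threshold. With the replicate number as a block, which stands for age and doxycycline time, both passed (adjusted p = 0.0198 and 0.0172). Both also passed with a stricter filter on the mean (adjusted p = 0.0361 and 0.0330), and without GFP4 replicate III (0.0274 and 0.0327), GFP3 replicate I (0.0389 and 0.0365) or GFP1 replicate II (0.00990 and 0.0243).

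The summed alpha globins ranged from 11.05 to 13.01 over the 15 libraries and the summed beta globins from 11.42 to 13.08. Both sums had their highest value in GFP4 replicate I. The alpha and beta sums, from different chromosomes, rose and fell together over the 15 libraries with Pearson's r = 0.95 (Spearman's rho = 0.87, and r = 0.91 without the 2 libraries farthest from the median). Taken as deviations from the group means, r was 0.98, so the sums also moved together among replicates of a group. Hba-a2 and Hbb-bs had r = 0.99, and Hbb-bt, with r = 0.69 to 0.72 against the other 3, was the globin that followed the rest least. The ratio of the alpha to the beta sum on the linear scale, a comparison between libraries and not a molar ratio, was 0.811 ± 0.141 (SD, n = 3) in GFP4, 0.836 ± 0.0674 in GFP3, 0.801 ± 0.105 in GFP2, 0.968 ± 0.0393 in GFP1 and 0.872 ± 0.148 in Total. The lowest ratio of all, 0.670, was in GFP4 replicate III and the highest, 1.04, in a Total library. All 4 globins together made up 0.0144% to 0.0462% of a library's summed linear values.

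**Figure D2:**
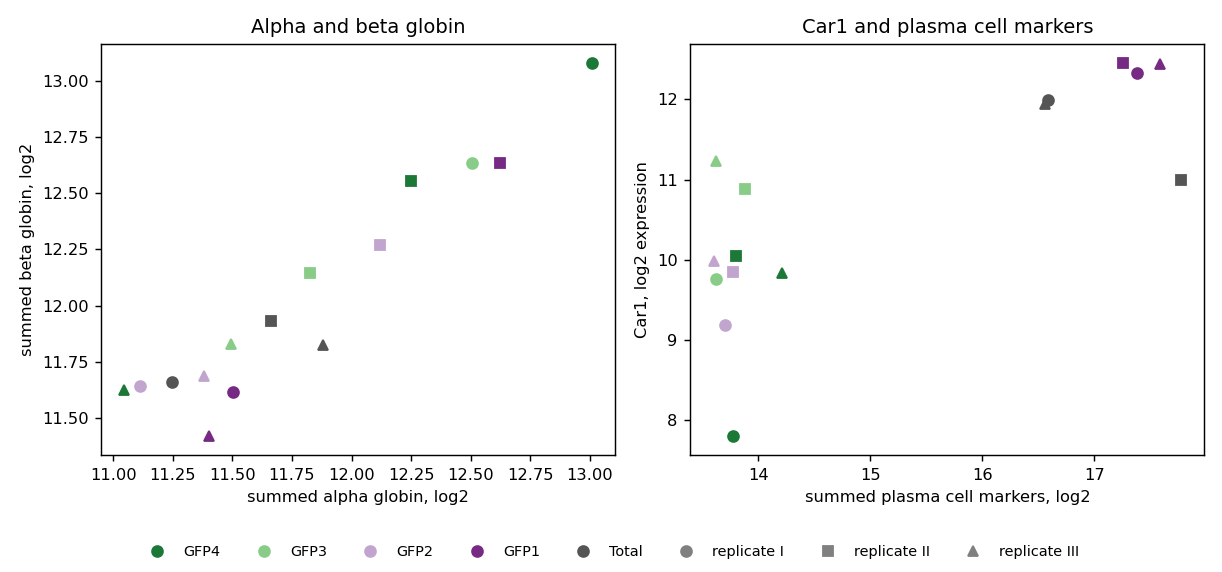
Left, summed beta globin against summed alpha globin, and right, Car1 against the summed plasma cell markers, in log2 units; each point is 1 of 15 libraries, with colour for the group and shape for the replicate. The globin sums line up with no order of the groups. Car1 runs from 11.00 to 12.46 in the 6 GFP1 and Total libraries, and is at 11.23 in GFP3 replicate III and 10.88 in GFP3 replicate II.

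The 4 globins did not follow the markers of red cell commitment. Over the 15 libraries, which share an amplification method and a normalization, the summed globins had r = -0.41 with Gata1, -0.32 with Klf1 and -0.40 with Epor, the erythropoietin receptor. Within groups these were -0.38, -0.30 and -0.31. Other cell types moved with them in part: r was 0.43 with the summed macrophage markers (0.66 within groups) and 0.50 with the summed neutrophil markers (0.40 within groups). Without the 2 libraries farthest from the median these were 0.31 and 0.20. The summed B cell markers had r = -0.05 with the globins, and 0.38 within groups. The summed eosinophil, mast cell and basophil markers had -0.13, and 0.39 within groups. Plasma cell, megakaryocyte and platelet, and HSC marker sums had -0.23, -0.34 and -0.12 within groups. The macrophage sum ranged from 12.38 to 14.08 in GFP4, 13.51 to 14.64 in GFP3, 13.37 to 15.71 in GFP2, 12.14 to 15.21 in GFP1 and 12.73 to 14.46 in Total, and the neutrophil sum ran from 15.89 to 17.90 over all groups, with no marker of either list at the lowest value of a library. Neither list had a gene past the threshold between GFP1 and GFP4, beside 19.5% of all genes. The part of macrophages, neutrophils or the other cells in the globin levels was not tested.

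Of 6 embryonic and minor globins, 5 passed the filter and none passed the test between GFP1 and GFP4 (19.5% of all genes), with a median of -0.65. That median comes from values near the floor. Hbb-y and Hbq1a were each at the lowest value of a library in 9 of the 15 libraries, Hbb-bh2 in 5, Hbb-bh1 in 3 and Hbq1b in 1. Hbb-bh1, an embryonic beta-like globin, ranged from 0.14 to 5.53 with no group apart from the others. Hba-x, the embryonic alpha-like globin, did not pass the filter and reached at most 1.40.

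Alas2, the erythroid enzyme of the first step of heme synthesis, is at chrX:150547375-150570638 on the plus strand. Its levels were 6.77, 7.00 and 5.86 in GFP4, 7.40, 6.11 and 6.76 in GFP3, 6.66, 7.00 and 5.87 in GFP2, 6.72, 7.26 and 6.57 in GFP1 and 6.35, 6.89 and 6.60 in Total. All groups overlapped, and the 5 group means spanned 0.34, less than the pooled SD of 0.52 within groups. The GFP1 to GFP4 difference was 0.31 ± 0.38 (limma, adjusted p = 0.714), with a 95% interval from -0.50 to 1.11. Over the 15 libraries Alas2 had r = 0.63 with the summed globins, and 0.72 within groups.

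Other genes of heme synthesis and transport were higher in GFP1. Of 15 tested, 7 were higher than in GFP4 and 0 lower (9.27% and 10.3% of all genes), with a median of 0.33. Tmem14c, which moves a porphyrin precursor in mitochondria, rose from 10.96, 11.05 and 11.14 in GFP4 to 12.13, 12.14 and 12.01 in GFP1, a difference of 1.04 ± 0.10 (adjusted p = 4.25e-07). Alad, the second enzyme of the pathway, was 0.69 ± 0.11 higher and Slc25a39, a mitochondrial carrier, 0.48 ± 0.11 higher (adjusted p = 6.66e-05 and 0.00323). Fitted without the GFP1 and Total libraries, GFP2 against GFP4, Tmem14c and Slc25a39 were among the 3 of 15 that passed, all of them higher. That fit called 4.84% of all genes. Between GFP1 and Total none of the 15 passed, near the 1.73% called over all genes.

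Slc4a1, the band 3 chloride and bicarbonate exchanger, is at chr11:102348824-102366203 on the minus strand. Its levels were 8.08, 9.25 and 7.77 in GFP4, 9.67, 7.86 and 8.44 in GFP3, 8.04, 7.58 and 8.67 in GFP2, 8.76, 8.94 and 8.17 in GFP1 and 9.17, 8.53 and 7.33 in Total. The highest library was in GFP3 and the lowest in Total, each far from the other replicates of its group, and every pair of neighbouring groups overlapped. Slc4a1 in GFP1 differed from GFP4 by 0.25 ± 0.58 (limma, adjusted p = 0.860), with a 95% interval from -1.03 to 1.54. Over the 15 libraries Slc4a1 had r = 0.23 with the summed globins.

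Partners of Slc4a1 in the red cell membrane and its skeleton did differ between GFP1 and GFP4. Of 17 tested, 9 were higher and 3 lower (9.27% and 10.3% of all genes), with a median of 1.41. Aqp1, the water channel, went from 7.68, 9.09 and 8.03 in GFP4 to 11.65, 11.26 and 11.46 in GFP1, a difference of 3.19 ± 0.40 (adjusted p = 0.000113). Icam4, the Landsteiner-Wiener blood group protein, was 1.90 ± 0.18 higher, Tmod1, which caps actin filaments, 2.18 ± 0.34 higher and Ermap, the Scianna blood group protein, 1.79 ± 0.28 higher (adjusted p = 3.25e-07, 0.000128 and 0.000129). Rhag, the Rh-associated glycoprotein, was 0.63 ± 0.21 higher (adjusted p = 0.0417, lost without any of 7 of the libraries and 0.225 without GFP1 replicate I).

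Skeleton genes on the other side were Epb41, protein 4.1, at -0.55 ± 0.10 (adjusted p = 0.000509), Epb42, protein 4.2, at -0.93 ± 0.26 (adjusted p = 0.0144) and Dmtn, dematin, at -1.18 ± 0.34 (adjusted p = 0.0167). Leaving out replicate III of GFP4 or of GFP1 ended the Epb42 call (adjusted p = 0.0638 and 0.0964), and leaving out GFP4 replicate I or GFP1 replicate II ended that of Dmtn (0.105 and 0.0775). In the fit of GFP2 against GFP4 without the GFP1 and Total libraries, 1 of the 17 was higher, Icam4, and 1 lower, Epb41. The share called over all genes there was 4.84%.

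Among 16 tested genes of late red cell maturation, 6 were higher and 3 lower in GFP1 than in GFP4 (median 0.23). The shares of all genes were 9.27% higher and 10.3% lower. Ahsp, a further gene of the list, was not analysed here. Slc14a1, the urea transporter of the Kidd blood group, read 11.04, 10.99 and 10.88 in GFP4 and 12.62, 12.70 and 13.13 in GFP1, a difference of 1.85 ± 0.13 (adjusted p = 1.24e-08). It was also 0.72 ± 0.13 higher in GFP1 than in Total (adjusted p = 0.00716). Trim58, a ubiquitin ligase of late erythroblasts, E2f2, a cell cycle factor, and Hemgn were 2.06 ± 0.22, 1.47 ± 0.17 and 1.20 ± 0.16 higher in GFP1 than in GFP4. Ube2l6, Cat (catalase) and Bnip3l (a mitophagy receptor) differed by -0.66 ± 0.09, -0.36 ± 0.09 and -0.25 ± 0.08, and the call of Bnip3l (adjusted p = 0.0433) was lost without any of 8 of the libraries, up to 0.217 without GFP4 replicate III. Without the GFP1 and Total libraries, Slc14a1 and Hemgn were higher in GFP2 than in GFP4.

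**Figure D3:**
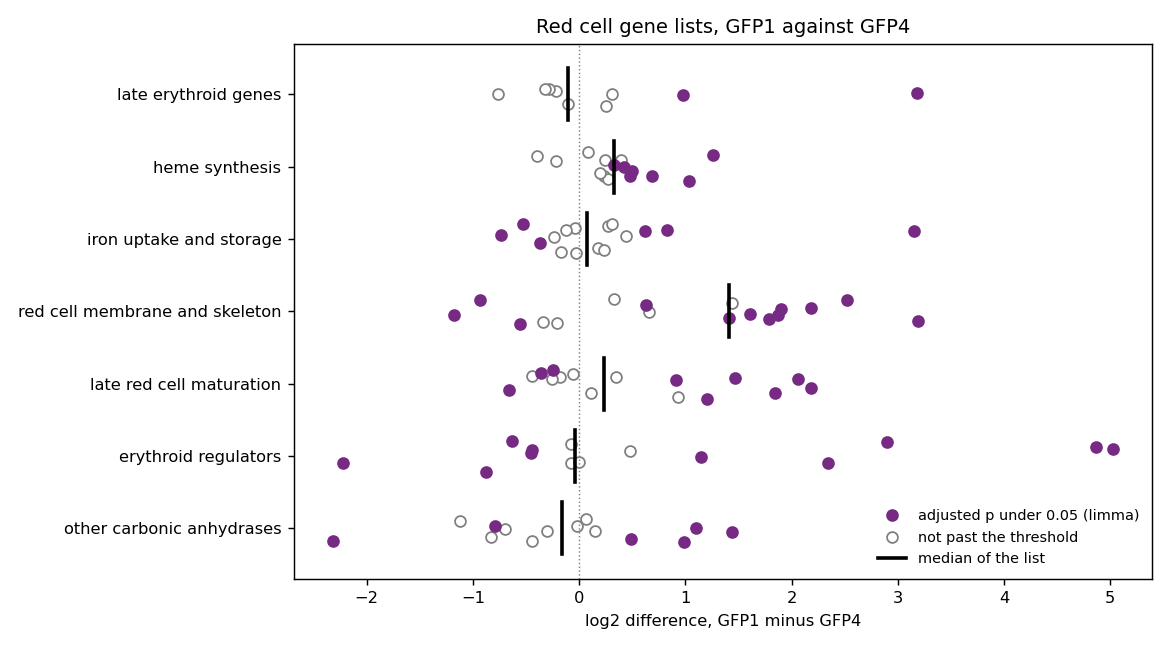
Log2 difference, GFP1 minus GFP4, of each tested gene in 7 lists; filled points passed an adjusted p of 0.05 (limma), open points did not, and black bars mark list medians. The late erythroid genes centre at -0.11 with Car1 at 3.18 and Tfrc at 0.98, and the membrane list centres at 1.41.

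Car1, a cytosolic carbonic anhydrase abundant in red cells, is at chr3:14766216-14808368 on the minus strand, and had the widest range of the 9 genes, from 7.80 to 12.46. Its levels were 7.80, 10.04 and 9.83 in GFP4, 9.77, 10.88 and 11.23 in GFP3, 9.19, 9.85 and 9.99 in GFP2, 12.33, 12.46 and 12.44 in GFP1 and 11.99, 11.00 and 11.94 in Total. The 3 GFP1 libraries lay within 0.12 of one another and above all others, while GFP4, GFP3 and GFP2 overlapped. GFP1 minus GFP4 was 3.18 ± 0.58 (limma, adjusted p = 0.00257), with a 95% interval from 1.89 to 4.48, and the trend was 0.86 ± 0.18 per step (adjusted p = 0.00658). GFP1 exceeded GFP2 by 2.73 ± 0.58 (adjusted p = 0.0181), in a comparison that called 7.17% of all genes. That call was lost without any single GFP1 library or without GFP2 replicate I or II, with adjusted p from 0.0542 to 0.0619. Between GFP3 and GFP4 the difference was 1.40 ± 0.58 (unadjusted p = 0.037, adjusted p = 0.788), and between GFP2 and GFP3 it was -0.95 ± 0.58 (adjusted p = 0.980). Among the 3 bins with the lower plasma cell sum, the mean of Car1 was highest in GFP3. Of its 31-base words, 21.7% occur in Gm5843.

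Car1 was lower in GFP4 than in Total, with a difference of -2.42 ± 0.58 (limma, adjusted p = 0.0253, beside 10% of genes called); this was lost without Total replicate I (0.0727) or III (0.0794) and when both groups were fitted alone (0.220). GFP1 minus Total was 0.77 ± 0.58 (adjusted p = 0.712, beside 1.73% called), although the libraries did not overlap, as they did not for 15.1% of all genes.

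Plasma cell markers moved with Car1. Their sum and Car1 had r = 0.78 over the 15 libraries and -0.17 within groups, and all 10 markers were higher in GFP1 than in GFP4 or GFP2. Car1 also had r = 0.70 with the mitosis sum and 0.75 with summed B cell markers (-0.11 and -0.17 within groups). With summed megakaryocyte and platelet markers r was 0.67 (0.36 within groups), and with summed HSC markers -0.74 (0.29 within groups). The neutrophil and macrophage sums had r = -0.07 and -0.20 with Car1. The gene most like Car1 among 9745 compared was Derl3 (r = 0.90), itself one of the 10 plasma cell markers, followed by Got1 (0.90), a transaminase, and Cox10 (0.87), which makes heme O, the precursor of heme A. Within the same 15 libraries Car1 had r = 0.79 with Gata1, 0.86 with Klf1 and 0.82 with Epor, which were 0.27, 0.33 and 0.64 within groups. The part of plasma cell RNA, of other cells or of division in the Car1 level was not tested.

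Car2, the fast carbonic anhydrase found in many tissues, is at chr3:14886273-14900770 on the plus strand, on the same chromosome as Car1. Its levels were 15.64, 16.20 and 15.73 in GFP4, 16.20, 15.82 and 15.94 in GFP3, 16.34, 16.20 and 16.04 in GFP2, 15.73, 15.76 and 15.76 in GFP1 and 15.86, 15.86 and 15.46 in Total. GFP2 was the highest group and lay above GFP1 in every library, yet GFP1 minus GFP2 was -0.44 ± 0.15 (limma, adjusted p = 0.104). The call changed with the fit: it passed at an adjusted p of 0.00146 when GFP1 and GFP2 were fitted alone and at 0.0229 without GFP4 replicate II, while normalization without immunoglobulin genes left a difference of -0.21 (adjusted p = 0.564). Against GFP4, GFP1 differed by -0.11 ± 0.15 (adjusted p = 0.752, interval from -0.43 to 0.22). Car1 and Car2 had r = -0.41 over the 15 libraries and 0.02 within groups, and the difference between the 2 genes in their change was not tested.

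Of 14 other carbonic anhydrases, 4 were higher in GFP1 than in GFP4 and 2 lower (9.27% and 10.3% of all genes), with a median of -0.16. Car13, a cytosolic form, was 1.10 ± 0.23 higher (adjusted p = 0.00172) and Car3 0.99 ± 0.25 higher (0.00753, and 0.0531 without GFP4 replicate II). Car12 and Car9, both at the cell surface, were 1.44 ± 0.46 and 0.49 ± 0.15 higher (0.0309 and 0.0314). The Car12 call was lost without GFP4 replicate III (0.162) or GFP1 replicate I (0.171), and the Car9 call without replicate I or III of either group, up to 0.150. Car11, a form without catalytic activity, differed by -2.32 ± 0.32 (adjusted p = 2.23e-05) and the mitochondrial Car5b by -0.79 ± 0.19 (0.00438).

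Tfrc, the transferrin receptor that brings in iron, is at chr16:32608920-32632794 on the plus strand. Its levels were 9.73, 10.24 and 9.47 in GFP4, 10.34, 10.18 and 9.85 in GFP3, 10.10, 10.22 and 10.25 in GFP2, 10.72, 11.01 and 10.65 in GFP1 and 10.46, 10.49 and 10.21 in Total. The GFP1 libraries were above all 12 others, and the remaining groups overlapped their neighbours. GFP1 minus GFP4 was 0.98 ± 0.17 (limma, adjusted p = 0.000257), with a 95% interval from 0.62 to 1.34, and the trend was 0.30 ± 0.054 per step (adjusted p = 0.000334). GFP1 minus GFP2 was 0.60 ± 0.17 (adjusted p = 0.0358), a call lost without any single library of either group, up to 0.160 without GFP1 replicate II. GFP4 minus Total was -0.57 ± 0.17 (adjusted p = 0.0374) with overlapping libraries, and was lost without GFP4 replicate I or III or without Total replicate I or II, up to 0.207. GFP1 minus Total was 0.41 ± 0.17 (adjusted p = 0.332) without overlap.

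Division genes moved with Tfrc, with r = 0.81 against the mitosis sum (0.23 within groups), and all 12 mitosis genes were higher in GFP1 than in GFP4. Plasma cell markers had r = 0.70 with Tfrc (-0.07 within groups). The genes most like Tfrc were Cse1l, a nuclear export factor, Hyou1, a chaperone of the endoplasmic reticulum, and Pask, a kinase, each with r = 0.91. The part of division or of plasma cell RNA in the Tfrc level was not tested.

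Other genes of iron handling went both ways. Of 16 tested, 3 were higher in GFP1 than in GFP4 and 3 lower (9.27% and 10.3% of all genes), with a median of 0.07. Steap3, the reductase that works with transferrin receptor in the endosome, read 6.03, 7.24 and 6.29 in GFP4, 7.82, 7.46 and 7.90 in GFP3, 8.54, 8.10 and 8.32 in GFP2, 9.82, 9.49 and 9.70 in GFP1 and 8.95, 8.49 and 8.93 in Total. Its bins did not overlap, and GFP1 minus GFP4 was 3.15 ± 0.26 (adjusted p = 5.15e-08). Glrx5, of iron-sulfur cluster assembly, and Slc11a2, the endosomal iron exporter, were 0.83 ± 0.11 and 0.62 ± 0.13 higher. The ferritin chains Ftl1 and Fth1, which store iron, differed by -0.74 ± 0.16 and -0.53 ± 0.16 (adjusted p = 0.00532 and 0.0279), and Isca1, an iron-sulfur assembly protein, by -0.37 ± 0.09. The Fth1 call was lost without replicate I or III of either group or Total replicate III, up to 0.105, when both groups were fitted alone (0.101) and when immunoglobulin genes were left out of the normalization (0.0853). In GFP2 against GFP4 without the GFP1 and Total libraries, Steap3, Glrx5 and Aco1, an iron-sensing aconitase, were higher and none was lower. The share called over all genes there was 4.84%.

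Regulators of the red cell line split evenly between GFP1 and GFP4. Of 14 tested, 5 were higher and 5 lower (9.27% and 10.3% of all genes), with a median of -0.03. Gata1, the master factor, read 5.91, 7.36 and 6.85 in GFP4, 8.58, 7.41 and 8.03 in GFP3, 9.86, 8.96 and 9.27 in GFP2, 12.03, 11.41 and 11.78 in GFP1 and 11.08, 10.71 and 11.11 in Total. Its bins stepped up without overlap, and GFP1 minus GFP4 was 5.03 ± 0.37 (adjusted p = 7.85e-07). Mfsd2b, the sphingosine phosphate exporter of red cells and platelets, was 4.87 ± 0.26 higher, Klf1 2.90 ± 0.32, Epor 2.34 ± 0.19 and Sox6 1.14 ± 0.13. Lmo2 and Ldb1, which bridge the GATA1 complex, differed by -0.88 ± 0.08 and -0.63 ± 0.08, Nfe2 by -0.44 ± 0.09 and Bcl11a, a repressor of embryonic globin, by -0.45 ± 0.10. Lmo2 (-0.31 ± 0.08) and Ldb1 (-0.44 ± 0.08) were also lower in GFP1 than in Total.

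In the 9 libraries with the lower plasma cell sum, Gata1 (2.66 ± 0.40, adjusted p = 0.00370), Mfsd2b (2.69 ± 0.29, adjusted p = 0.00104), Epor (1.41 ± 0.21, adjusted p = 0.00159) and Sox6 were higher in GFP2 than in GFP4 and Lmo2 was lower. Klf1 was 0.68 ± 0.31 there (adjusted p = 0.301). In that same fit the 4 globins ran from -0.64 for Hbb-bt to -0.45 for Hbb-bs, Slc4a1 was -0.27, Alas2 -0.03 and Car2 0.34, none past the threshold. Markers of other cells and of division moved in that fit too, which called 4.84% of all genes. Of 10 megakaryocyte and platelet markers, 5 were higher (Gp5, Itga2b, Gp1bb, Treml1 and Pf4) and 1 lower. In other lists, 9 of 12 mitosis genes were higher and 5 of 10 HSC markers lower. No plasma cell or B cell marker passed, 0 of 10 in each list, which is near the share over all genes. The part of other cells and of division in the regulator levels was not tested. These values share the GFP4 libraries with GFP1 against GFP4.

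Between neighbouring bins the 9 genes gave few calls. GFP3 against GFP4 called 0 of 9, beside 0.0572% of all genes, with Car1 alone under an unadjusted p of 0.05. GFP2 against GFP3 called 0 of 9 and 0% of all genes by limma, and 1569 of 27994 genes had an unadjusted p under 0.05, none of them a member. GFP1 against GFP2 called 2 of 9, Car1 and Tfrc, beside 7.17% of all genes. GFP1 against Total called 0 of 9, beside 1.73% of all genes, with Tfrc alone under an unadjusted p of 0.05. Counting instead the genes whose 3 libraries did not overlap between groups gave 2 of 9 in GFP1 against GFP4 (32.8% of all genes), 0 of 9 in GFP3 against GFP4 (11.4%) and 0 of 9 in GFP2 against GFP3 (10.4%). The same count was 3 of 9 in GFP1 against GFP2 (24.6%), 2 of 9 in GFP1 against Total (15.1%) and 2 of 9 in GFP4 against Total (22.1%). Those in GFP1 against GFP2 were Car1 and Tfrc, higher, and Car2, lower.

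**Figure D4:**
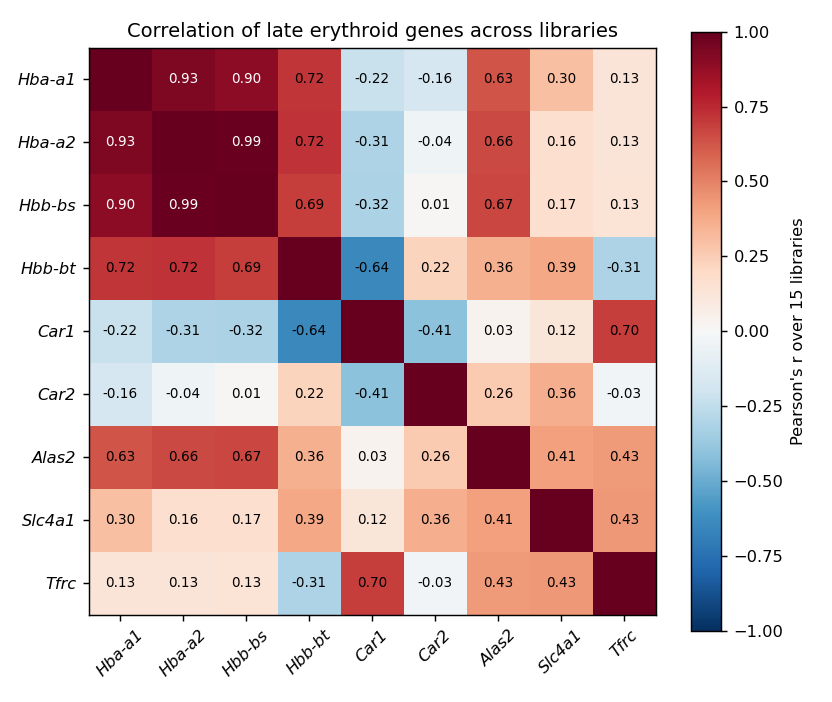
Pearson's r between the 9 genes over the 15 libraries, from -1 (blue) to 1 (red). Hba-a1, Hba-a2 and Hbb-bs form a block at 0.90 to 0.99 with Hbb-bt at 0.69 to 0.72 beside it, and Car1 and Tfrc pair at 0.70.

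Among themselves the 9 genes fell into no single pattern. Car1 and Tfrc had r = 0.70 over the 15 libraries but -0.06 within groups, so their likeness lay between the groups. Car1 and Hbb-bt had r = -0.64. Slc4a1 and Tfrc had r = 0.43, and 0.70 within groups, and Car2 and Slc4a1 0.36, and 0.73 within groups. The genes outside the set that came closest to the globins were Megf9 for Hba-a1 (r = 0.73), Hba-a2 (0.80) and Hbb-bs (0.78), and Btrc, a ubiquitin ligase subunit, for Hbb-bt (0.90). The closest to Car2 was Parn (0.85), to Alas2 Sh3kbp1 (0.69) and to Slc4a1 Zzef1 (0.79). These are the highest of 9745 values for each gene over 15 libraries that share groups and normalization, and serve as a description.

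Other cell type markers differed between GFP1 and GFP4 as well, where 9.27% of all genes were higher and 10.3% lower. Of the 10 markers in each list, 7 B cell markers were higher, 8 megakaryocyte and platelet markers were higher and 1 lower, 3 eosinophil, mast cell and basophil markers were higher, and 8 HSC markers were lower. The B cell sum ranged from 11.53 to 12.40 in GFP4, GFP3 and GFP2 and from 12.89 to 13.76 in GFP1 and Total, with no marker at the lowest value of a library. The megakaryocyte sum ran from 15.52 to 15.81 in the 3 bins and from 15.80 to 16.26 in GFP1. The eosinophil, mast cell and basophil sum had r = 0.82 with Tfrc (0.48 within groups) and 0.75 with Car1 (0.16 within groups), and 5 of its 10 markers were at the lowest value in at least 1 library. The part of these cells in the levels of the 9 genes was not tested.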

How the data were processed

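RNA of sorted HSCs was amplified with SMART-Seq v4 and made into Nextera XT libraries, per the labels' protocols. The submitters' processing notes name kallisto 0.43.0 and GRCm38; how transcripts were summed to genes is not given in the sources used. The authors deposited log2 values per gene symbol, which from the values are quantile normalized, so differences in total RNA are removed and read depth is unknown. All 15 libraries entered one limma 3.58.1 fit in R 4.3.3 (trend and robust options, 1 mean per group, values as deposited), for the 27994 genes that reached 1 on the linear scale in 3 or more libraries, with Benjamini-Hochberg adjustment per comparison and a threshold of 0.05. The planned rule named a count test for counts, which did not apply. The script was tested on simulated data.

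The 9 genes and all gene lists were chosen with earlier results of these data known. Named besides the 9 genes were up to 4 genes of a list each way with the smallest p in GFP1 against GFP4, up to 2 each way in GFP1 against Total, some red cell specific genes and, for likeness, the 3 genes of highest r above a minimum mean level. Flvcr1 was matched as Mfsd7b and Tent5c as Fam46c through RefSeq synonyms; 188 of 189 list genes had a row. A few list genes enter the counts and medians and are not reported by name here. Alternatives were other normalizations, filters, a pseudocount of 0.1, array weights, the compared groups alone, a replicate block and each library left out. Promoters come from RefSeq (GRCm38.p6) and gene positions from GENCODE.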

Additional observations from a re-analysis of the deposited data

How the results depend on the processing

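Each group held 3 libraries and read depth is unknown, and the intervals of the globin differences are wide. Over all settings, 498 of 564 member differences kept their direction and side of the threshold, 40 lost a call, 15 gained one and 11 changed sign; of the other list genes 1087 of 1176 were the same, 84 lost a call, none gained one and 5 changed sign.

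Normalization without immunoglobulin genes turned Car2 in GFP1 against GFP4 to 0.0945. With GFP2 in place of GFP1 and without the GFP1 and Total libraries, chosen after seeing the data, 0 members passed against GFP4. The trend over the bins left is the same contrast as GFP2 against GFP4, with the same p-values, and adds no separate test. Car2 turned to 0.34, Alas2 to -0.033, Slc4a1 to -0.27 and Fth1 to 0.013. Rhd turned to -0.26, Ermap to -0.13, Bnip3l to 0.070 and Fam46c to -0.15. That fit called 1354 of 27994 genes, against 5468 for GFP1 against GFP4 and 5618 for the trend with all libraries. For GFP4 against Total, array weights gave 0 members past the threshold; the compared groups alone gave 1, Hbb-bt (adjusted p = 0.0317), while Car1 and Tfrc no longer passed (0.220 and 0.118).

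With 1 library left out, GFP1 minus GFP4 ranged from -0.64 to 0.15 for Hba-a1, -0.86 to 0.22 for Hba-a2, -0.91 to 0.13 for Hbb-bs, -0.22 to 0.065 for Car2, -0.038 to 0.54 for Alas2 and -0.045 to 0.70 for Slc4a1, and GFP2 minus GFP3 from -0.072 to 0.18 for Tfrc. The positive globin values came without GFP4 replicate I, and the negative Alas2 and Slc4a1 values without GFP4 replicate III. The positive Car2 value came without GFP4 replicate II and the negative Tfrc value without GFP3 replicate III. Members past the threshold ranged from 0 to 3 in GFP1 against GFP2 and from 0 to 3 in GFP4 against Total. Genes called over all genes ranged from 0 to 121 in GFP3 against GFP4 (16 with all libraries; 121 without GFP3 replicate II), from 0 to 19 in GFP2 against GFP3 (0), from 1205 to 2479 in GFP1 against GFP2 (2007), from 197 to 563 in GFP1 against Total (484) and from 1864 to 2781 in GFP4 against Total (2799). Other settings moved them to 7 (no filter), 10 (a stricter filter on the mean) and 10 (compared groups alone) in GFP3 against GFP4, to 1 (no immunoglobulin genes) and 2 (array weights) in GFP2 against GFP3, and, with the compared groups alone, to 89 in GFP1 against Total and 1660 in GFP4 against Total. The cause was not tested.

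Libraries with the same replicate number share age and doxycycline time; whether they share an animal or a sort is not stated. Their deviations from the group means had r from -0.41 to 0.59 over 30 pairs (median 0.19, 21 above 0.1), against a median of -0.11 over 60 pairs with different numbers (10 above 0.1). With a replicate block, Hbb-bt passed in GFP1 against GFP4 (adjusted p = 0.0198) and in GFP4 against Total (adjusted p = 0.0172), and genes called over all genes became 48 in GFP3 against GFP4 and 5 in GFP2 against GFP3.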
